A study of Homo sapiens with 12 samples.

Results

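BrU-labelled RNA was compared between A375/211 and A375, with each chase time in one line matched to the same time in the other. A375 is an established human melanoma cell line. A375/211 is derived from it and overexpresses MIR211, which encodes the microRNA miR-211. All 8 BRIC-seq libraries of the series entered the comparison, 4 per line at 0, 1, 3 and 6 h of chase, out of 12 libraries in all. The other 4 are RNA-seq libraries of total RNA, labelled a and b in each line, and were set beside the labelled RNA. Before the chase, cells of both lines were grown with 5-bromouridine (BrU) for 24 h. How MIR211 was delivered, and whether A375/211 is a single clone, is not given in the sources used here. Every one of the 60675 Ensembl gene rows was a member, and 13703 had enough counts to be tested.

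In BRIC-seq, cells take up BrU into new RNA, the label is then withdrawn, and RNA carrying BrU is pulled down with an antibody at set times. The RNA in a library was therefore made before the chase and had survived it up to the time of harvest. A microRNA is loaded into an Argonaute protein and pairs through its seed with sites in the 3′ untranslated region of mRNAs, which shortens their life or lowers their translation. MIR211 lies in an intron of TRPM1, a gene of the pigment cell lineage, and is switched on by the melanocyte transcription factor MITF.

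The mature miR-211-5p is shown because its seed defines the sites discussed here. It is given 5′ to 3′ from RefSeq (GRCh38.p14, chr15:31065095-31065116, minus strand), with the seed, bases 2 to 8, in capitals.
hsa-miR-211-5p: uUCCCUUUgucauccuucgccu
The matching site in an mRNA, written as DNA, reads AAAGGGA. Sites in the 3′ untranslated regions of reported targets are shown as 24-base windows of hg38, read on the strand of the gene, with the seed match in capitals. DUSP3 is a reported target that did not pass here, the next 3 genes fell and the last 2 rose in labelled RNA. SOX11 and NUAK1 have 3 matches each, of which 1 is shown.
DUSP3 site at chr17:43766560-43766566: ggatggtttggAAAGGGAatgttg
DUSP3 site at chr17:43766236-43766242: ttctggacagaAAAGGGAgagcta
PDK4 site at chr7:95585332-95585338: ataagaataagAAAGGGAgtgagt
IGFBP5 site at chr2:216672741-216672747: tttggatggggAAAGGGAaggtgg
SOX11 site at chr2:5695032-5695038: ttgtacagtgaAAAGGGAacattc
NUAK1 site at chr12:106066636-106066642: gccaacacctaAAAGGGAgaggtg
TGFBR2 site at chr3:30693923-30693929: ctactatacatAAAGGGAaagttt

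Depth was 2.78 to 6.66 M counts in the A375/211 libraries and 2.67 to 7.28 M in the A375 libraries, and it was higher at the later times in both lines. Mitochondrial genes took 18.1 to 32.4% of the counts in A375/211 and 21.1 to 34.1% in A375. Levels are given as CPM (counts per M counts) on library sizes scaled by TMM, a method that assumes that most genes do not differ. The TMM factor fell from 1.346 at 0 h to 0.615 at 6 h in A375/211 and from 1.296 to 0.6872 in A375. A CPM is thus a level relative to the genes that set the scaling, not a plain share of the labelled RNA that remained. A value that climbs over the chase marks a transcript lost more slowly than those genes. The melanoma marker list summed to 4260 to 18200 CPM in A375/211 and 1940 to 6830 CPM in A375. Most of this was SERPINE2, at 3934, 3958, 6603 and 17634 CPM in A375/211, against 1730, 1513, 2366 and 6455 CPM in A375. Of 12 tested markers, 5 were higher and 1 lower (50% called, beside 25.9% of all tested genes), and TYR was at 0 in all libraries. The keratinocyte markers KRT5, KRT14, KRT1, DSG3 and IVL were at 0, as were the leukocyte markers PTPRC, CD3E and ITGAM and the endothelial markers VWF, CDH5 and CLDN5. The endothelial list still summed to 28.3 to 47.2 CPM in A375/211 and 1.06 to 4.12 CPM in A375, and its 1 tested marker, KDR, a receptor for VEGF, was higher by 4.54 ± 0.42 on the log2 scale (SE, adjusted p = 0.001).

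MIR211 itself was checked against the labels first. Its labelled counts were 9, 11, 2 and 3 at 0, 1, 3 and 6 h in A375/211, against 0, 0, 0 and 0 in A375. With a floor of 3 counts over the A375 libraries, MIR211 was at least 9.12-fold higher in A375/211. The counts were too few for a test, and the short RNA itself is not captured by this kind of library, so they stand for the precursor transcript. TRPM1, the host gene, had 0.544 CPM in A375/211 at 0 h and no count in the other 7 libraries.

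Labelled RNA differed widely between the lines. At an adjusted p under 0.05 in edgeR's quasi-likelihood test, 3546 of 13703 genes passed, which is 25.9% of those tested. Of these, 1864 (13.6%) were higher in A375/211 and 1682 (12.3%) were lower. At least 2-fold differences were held by 877 passing genes on the higher side (6.4%) and 734 on the lower side (5.36%), and at least 16-fold differences by 114 and 43 genes. The middle of all tested genes lay close to equality, at a log2 difference (A375/211 minus A375) of -0.05, with 5% of genes under -1.21 and 5% above 1.29. The 4 times stand for replicates here. The error of a gene rests on the spread of its line difference over them (3 residual degrees of freedom). It is moderated by edgeR with the spread of all tested genes, so a p does not rest on that gene alone. Nothing in the labels says that the times were separate cultures, so each p reflects the scatter of these libraries alone, which may be technical. The balance of the split rested on the scaling: with total counts in place of TMM, 1492 genes passed as higher and 2114 as lower (41.4% higher, against 52.6% with TMM), and the median of all genes moved to -0.15. Leaving out the libraries of 1 h or of 3 h lowered the number that passed to 2038 and 1736, with fewer libraries in the fit.

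**Figure D1:**
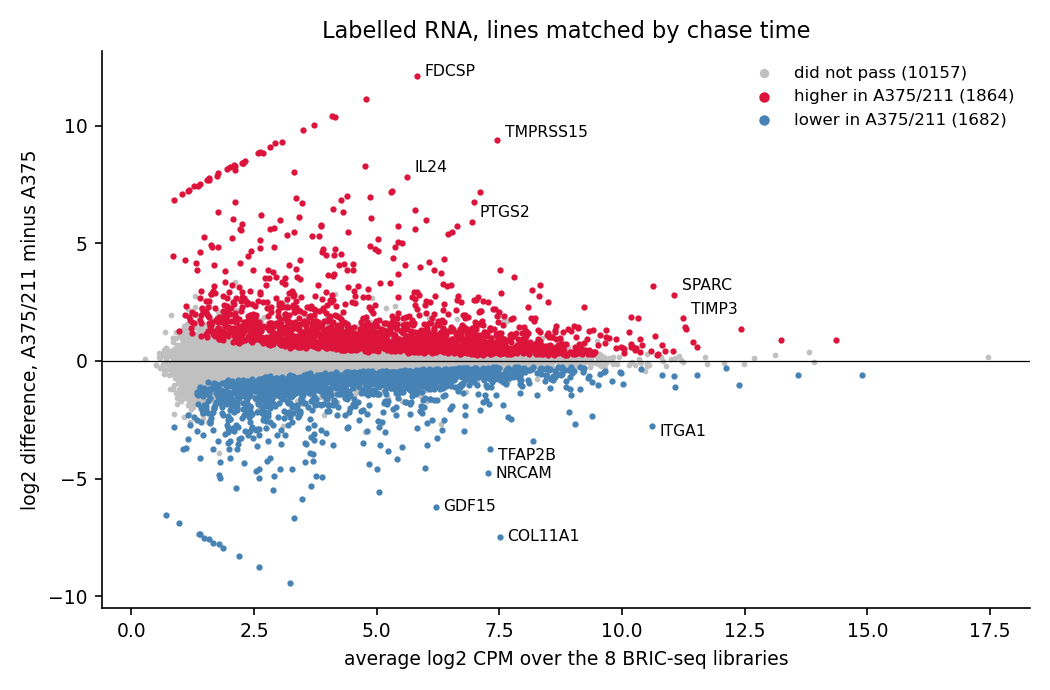
Log2 difference in labelled RNA, A375/211 minus A375, against the average log2 CPM over the 8 BRIC-seq libraries, 1 point per tested gene. The 1864 genes that passed as higher are red, the 1682 that passed as lower are blue and the rest are grey. The slanted rows of points at the far left are genes with 0 counts in one line, whose fitted value depends on the prior count.

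Nearly all passing genes kept the direction of their line difference at every chase time. Of the passing genes, 3518 (99.2%) differed in the same direction at all 4 times, against 3100 (30.5%) of the genes that did not pass. A gene passes only where its matched differences agree, so the first share is largely set by the selection. No gene passed edgeR's test of whether the line difference changed over the chase (0 of 13703, which is 0%). An unadjusted p under 0.05 was held by 527 genes, a smaller share than that cutoff itself, and DESeq2 called 14. PTGS2, which was lost over the chase, had log2 ratios of 5.89, 5.61, 5.84 and 5.85 at 0, 1, 3 and 6 h, a narrow range that the plot of levels by chase time shows as parallel curves. For DKK1, a gene of the WNT pathway list, the ratios narrowed instead, with 5.11, 4.41, 3.12 and 1.65 at the same times.

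**Figure D2:**
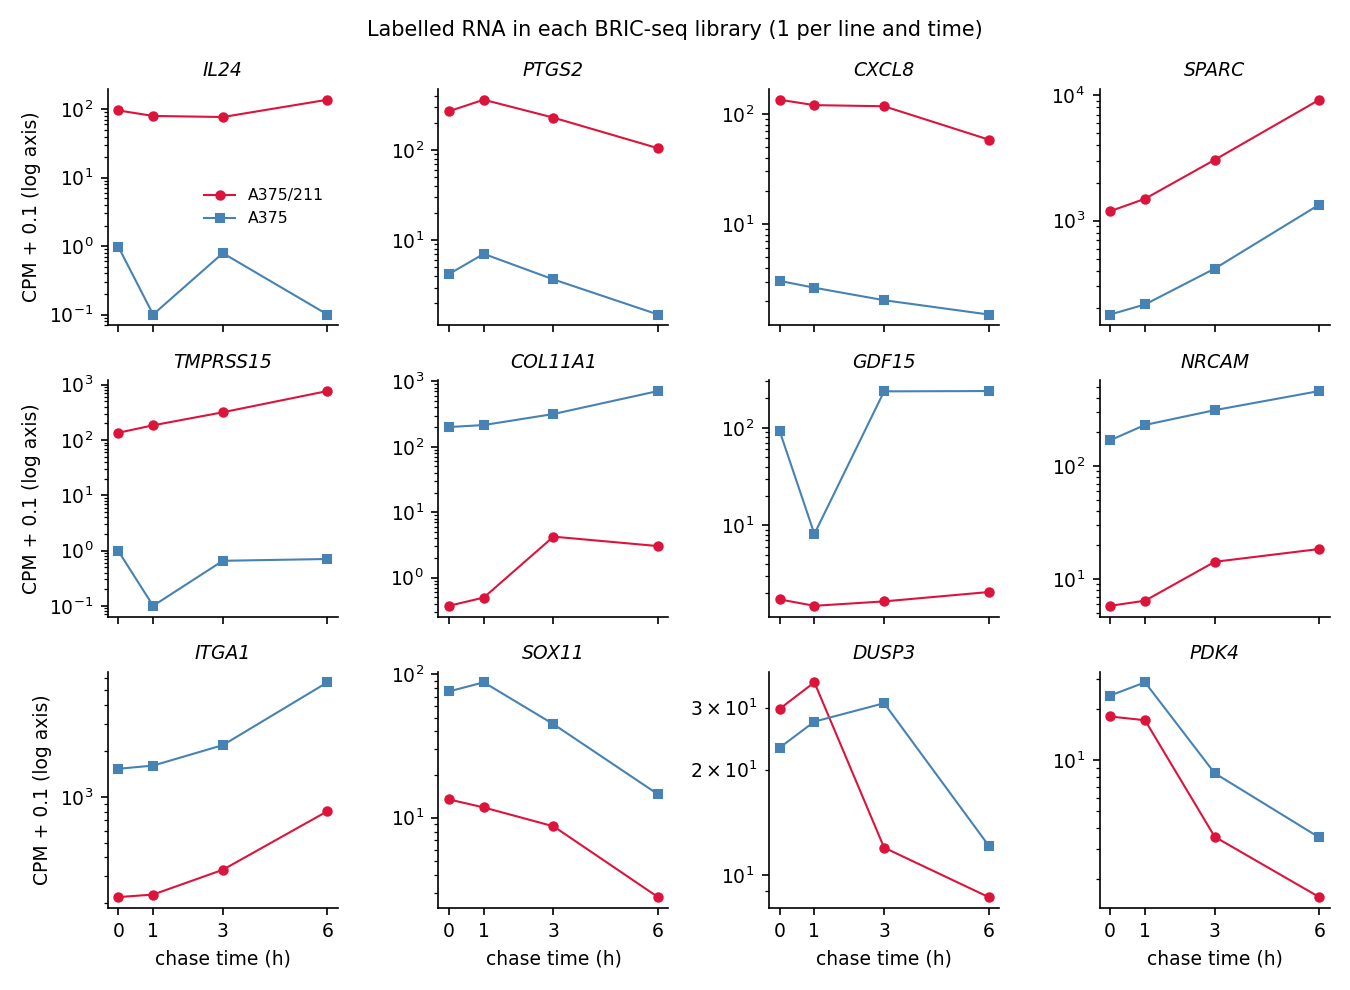
Labelled RNA levels (CPM + 0.1, log axis) of 12 genes against chase time in A375/211 (red circles) and A375 (blue squares), 1 library per point, with no replicate at a time. The curves of IL24, PTGS2, CXCL8, SPARC and TMPRSS15 run above those of A375 and those of COL11A1, GDF15, NRCAM, ITGA1, SOX11 and PDK4 below, at all 4 times, while those of DUSP3 cross.

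Most tested secreted inflammatory factors were higher. Of 16 tested cytokines, chemokines and related factors, 11 were higher in A375/211, 2 were lower and 3 did not pass (81.2% called, beside 25.9% of all tested genes). Their median log2 difference was 3.82, beside -0.05 over all tested genes. IL24, a secreted relative of interleukin-10, had 96.2, 79.9, 77.1 and 138 CPM at 0, 1, 3 and 6 h in A375/211, against 0.883, 0, 0.690 and 0 CPM in A375. The groups did not overlap, and the log2 difference was 7.84 ± 0.52 (SE, adjusted p = 0.00034). PTGS2, the inducible cyclooxygenase that makes prostaglandin precursors, had 269, 361, 228 and 105 CPM in A375/211, against 4.12, 6.98, 3.59 and 1.41 CPM in A375. It was higher by 5.93 ± 0.12 on the log2 scale (SE, adjusted p = 1.2e-05), and the groups did not overlap.

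CXCL8, the neutrophil chemokine interleukin-8, had 134, 120.0, 117 and 58.3 CPM in A375/211, against 2.94, 2.54, 1.93 and 1.41 CPM in A375. CXCL1, another chemokine of the same receptor, had 168, 141, 143 and 172 CPM in A375/211, against 6.48, 5.71, 7.31 and 12.1 CPM in A375. IL1B, the secreted interleukin-1, had 42.4, 30.5, 49.8 and 27.7 CPM in A375/211, against 0.883, 0.634, 0 and 0 CPM in A375. None of these overlapped between the lines, and the log2 differences were 5.60 ± 0.15 for CXCL8, 4.33 ± 0.17 for CXCL1 and 6.85 ± 0.58 for IL1B (SE, adjusted p = 1.9e-05, 6.8e-05 and 0.00076). IL1A, CXCL2, CXCL3, CCL2 and SPP1 also rose, and are named here after their values were seen. BIRC3, an inhibitor of apoptosis that is a classical NF-kappaB target, had 212, 309, 103 and 53.9 CPM in A375/211, against 8.54, 3.81, 3.45 and 0.603 CPM in A375 (log2 5.38 ± 0.33, SE, adjusted p = 0.00025). A375 total RNA did hold CXCL8, at 165 and 48.5 CPM, and BIRC3, at 78.0 and 23.7 CPM. The total RNA log2 differences were 1.43 for CXCL8, 2.30 for CXCL1, 6.69 for IL1B and 0.84 for BIRC3. None of the 4 passed there (adjusted p = 0.52, 0.13, 0.062 and 0.70). The largest rise was in FDCSP, a small secreted peptide first described in follicular dendritic cells, with counts of 163, 172, 419 and 1226 in A375/211 and none in A375, at least 722-fold higher.

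GDF15, a stress cytokine that is also a p53 target, went the other way. It had 1.63, 1.39, 1.55 and 1.96 CPM in A375/211, against 93.3, 8.03, 237 and 238 CPM in A375 (log2 -6.20 ± 0.63, SE, adjusted p = 0.0014). The A375 library at 1 h stood apart from the other A375 libraries for this gene, and still lay above every A375/211 library. The other member of the list that fell was IL11 (log2 -1.22 ± 0.20, SE, adjusted p = 0.007), named after its value was seen. LIF (-0.13), CSF1 (-0.33) and VEGFA (0.17) did not pass.

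Because these genes moved together, the 250 bases before and 50 after their starts (RefSeq, GRCh38.p14) were searched on both strands for the NF-kappaB consensus and for the AP-1 motif TGANTCA. RefSeq promoters were matched for 9 of the 11 that rose. The NF-kappaB consensus was found in 3 of these 9, beside 5.72% of 27305 promoters and 6.4% of 9334 promoters of tested genes. Its share was 10.6% among 614 promoters of passing genes at least 2-fold higher. The 3 are CXCL1, CXCL2 and CXCL3, whose elements are nearly identical. They are not separate observations, so an excess over these shares cannot be read from them. The AP-1 motif was found in 2 of the 9, beside 7.76% of all promoters, 4.55% of those of tested genes and 9.12% of those 614. Only exact matches were counted, so a near match to the NF-kappaB consensus, in CXCL8 or elsewhere, was missed. The 30-base windows about the NF-kappaB matches are shown, with the match in capitals, because these 3 chemokines share the element nearly letter for letter. The AP-1 window of CXCL8 stands beside them, and the 2 AP-1 matches of IL1A are not shown.
CXCL1 (chr4:73869305-73869334, plus strand): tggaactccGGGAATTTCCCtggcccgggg
CXCL2 (chr4:74099253-74099282, minus strand): tggagctccGGGAATTTCCCtggcccggga
CXCL3 (chr4:74038748-74038777, minus strand): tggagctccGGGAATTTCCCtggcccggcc
CXCL8 (chr4:73740421-73740450, plus strand): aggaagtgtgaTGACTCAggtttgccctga
In the first 3 lines the capitals cover a pair of overlapping matches to the NF-kappaB consensus, 1 per strand, and in the CXCL8 line they cover the AP-1 motif. A match is a description of the letters, and binding was not measured.

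Genes of antigen presentation were higher in A375/211. Of 14 tested genes of MHC class I presentation, 10 rose and none fell (71.4% called, beside 25.9% of all tested genes). The median log2 was 0.83, and all 14 had a positive difference. HLA-E had 13.6, 12.5, 23.8 and 52.2 CPM in A375/211, against 3.83, 4.23, 8.14 and 15.9 CPM in A375. Its ranges overlapped between the lines because both climbed over the chase, but at each time A375/211 was higher (log2 1.65 ± 0.14, SE, adjusted p = 0.00083). HLA-B rose by 1.15 ± 0.12 on the log2 scale (SE, adjusted p = 0.0017). In total RNA the log2 differences were 0.72 for HLA-E and -0.14 for HLA-B, and neither passed (adjusted p = 0.20 and 0.88). The list median there was 0.26, and 8 of its 10 passing genes had the same sign. Reads of these genes can be split among near-identical copies, so the value of any one of them is uncertain. With the library sizes scaled to the row that names no gene, 5 of the 14 passed, none of them as lower. That row held only 3 to 81 counts per library, so this scaling carries a large counting error wherever it is used here.

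The 20 neighbouring tested genes with the highest median difference anywhere in the genome were those of chromosome 6 from AGPAT1 to HLA-DPB1 (GENCODE 44, hg38, chr6:32168212-33089696), with a median log2 of 1.73, 13 genes higher and none lower. This stretch holds the MHC class II genes, which present peptides to helper T cells and are expressed by some melanomas. Taken as a group after this was seen, 11 of 12 tested class II genes were higher and none lower, beside 13.6% and 12.3% of all tested genes, with a median log2 of 2.55. HLA-DRA, the alpha chain of HLA-DR, had 87.8, 92.2, 182 and 614 CPM in A375/211, against 13.2, 16.5, 31.3 and 111 CPM in A375 (log2 2.54 ± 0.09, SE, adjusted p = 3.5e-05). In total RNA, 11 of the 12 also had a positive difference, with a median log2 of 1.20. Class II genes are also typical of antigen-presenting leukocytes. Both tested leukocyte markers, CD68 and LYZ, were higher in labelled RNA (log2 2.53 ± 0.24 and 2.35 ± 0.22, SE, adjusted p = 0.0011 and 0.001), with a summed leukocyte marker level of 18.6 to 153 CPM in A375/211 and 3.24 to 21.3 CPM in A375, while PTPRC was at 0. In total RNA their log2 differences were -0.80 and -0.94 and did not pass (adjusted p = 0.46 and 0.63). The part of such cells in the class II result was not tested.

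Interferon-induced genes rose in part. Of 22 tested, 9 were higher, 1 was lower and 12 did not pass (median log2 0.84, 45.5% called beside 25.9% of all tested genes). SAMD9, an antiviral factor, had 108, 178, 190.5 and 70.1 CPM in A375/211, against 34.4, 44.2, 51.9 and 12.7 CPM in A375, with no overlap (log2 1.99 ± 0.14, SE, adjusted p = 0.00047). IFIH1, a sensor of double-stranded RNA, rose by 2.08 ± 0.19 and OAS3, which makes the activator of RNase L, by 1.40 ± 0.11 on the log2 scale (SE, adjusted p = 0.001 and 0.00061). Of the 9 that rose, 4 lie on chromosome 12, where many genes were higher, and without chromosomes 12, 13 and 20 there were 5 higher and 1 lower of 18. IFIT1 (0.56) and MX1 (-1.68), which are hallmarks of an interferon response, did not pass and were named after their values were seen.

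Genes of the invasive, mesenchymal-like melanoma state were mostly higher. Of 23 tested, 12 rose, 4 fell and 7 did not pass (median log2 0.98, 69.6% called beside 25.9% of all tested genes). SPARC, a secreted glycoprotein that binds collagen, had 1192, 1497, 3062 and 9223 CPM in A375/211, against 179, 215, 415 and 1345 CPM in A375. At each time the gap was close to the same, with log2 ratios of 2.73, 2.80, 2.88 and 2.78 (fitted log2 2.80 ± 0.06, SE, adjusted p = 1.2e-05). THBS1, a matricellular protein induced by TGF-beta, had 293, 408, 506 and 438 CPM in A375/211, against 35.9, 34.9, 31.5 and 34.4 CPM in A375. AXL, a receptor kinase of dedifferentiated melanoma, rose by 2.21 ± 0.12 and its companion marker WNT5A by 2.22 ± 0.18 on the log2 scale (SE, adjusted p = 0.00018 and 0.00074). Among the 4 that fell was FN1, fibronectin, named after its value was seen, with 31.3, 32.3, 44.5 and 137 CPM in A375/211, against 85.7, 91.5, 179 and 548 CPM in A375 (log2 -1.75 ± 0.13, SE, adjusted p = 0.00051). Members of the same list thus moved in opposite directions. Of 4 tested fibroblast markers 2 were higher and none lower, with a summed level of 33.4 to 162 CPM in A375/211 and 4.02 to 15.9 CPM in A375, and the part of such cells was not tested.

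Proteases of the matrix and their inhibitors were more often higher than lower. Of 27 tested, 14 were higher and 4 lower (median log2 0.51, 66.7% called beside 25.9% of all tested genes). The list median in total RNA was 0.09, and 11 of the 17 passing genes measured there had the same sign. MMP2, a gelatinase, had 26.6, 34.1, 42.6 and 254 CPM in A375/211, against 0.883, 1.27, 1.66 and 6.03 CPM in A375 (log2 5.00 ± 0.18, SE, adjusted p = 4.9e-05). TIMP3, a matrix-bound inhibitor of such enzymes, had 2356, 3208, 4825 and 4797 CPM in A375/211, against 714, 935, 1298 and 1352 CPM in A375 (log2 1.81 ± 0.06, SE, adjusted p = 3.4e-05). Neither gene overlapped between the lines.

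Adhesion receptors and their ligands moved in both directions, more often up. Of 25 tested laminin chains and integrins, 13 were higher and 4 lower (median log2 0.53, 68% called beside 25.9% of all tested genes). LAMA1, a chain of embryonic laminin, had labelled counts of 45, 142, 181 and 255 in A375/211 and none in A375, at least 227-fold higher. A375 total RNA did hold LAMA1, at 6.05 and 5.74 CPM, against 22.4 and 9.74 CPM in A375/211 (log2 1.45, adjusted p = 0.33). ITGA1, the alpha chain of a collagen receptor, had 219, 228, 332 and 804 CPM in A375/211, against 1527, 1602, 2183 and 5641 CPM in A375, with no overlap (log2 -2.79 ± 0.06, SE, adjusted p = 1.2e-05). ITGA9, whose product binds tenascin and osteopontin, fell by 2.96 ± 0.09 on the log2 scale (SE, adjusted p = 3.2e-05).

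Cadherins and protocadherins gave 17 higher and 2 lower of 70 (median log2 0.26). The share called, 27.1%, was near the 25.9% of all tested genes. With the scaling to the row that names no gene there were 9 higher and 6 lower. Without 1 h there were 10 higher and without 3 h 7 higher. FAT3, a giant atypical cadherin, had 188, 269, 362 and 548 CPM in A375/211, against 13.2, 17.5, 24.8 and 38.8 CPM in A375 (log2 3.86 ± 0.08, SE, adjusted p = 1.2e-05). NRCAM, a neuronal adhesion molecule of the immunoglobulin family, was among the largest falls, with 5.71, 6.34, 14.1 and 18.4 CPM in A375/211, against 169, 231, 313 and 462 CPM in A375 (log2 -4.76 ± 0.14, SE, adjusted p = 2.6e-05). For both genes the lines did not overlap.

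Collagen chains were divided, with 3 higher and 4 lower of 18 (median log2 -0.15, 38.9% called beside 25.9% of all tested genes). Their median log2 in total RNA was 0.27, and 4 of the 7 that passed had the same sign there. COL11A1, a fibrillar collagen of cartilage and of tumour stroma, gave the largest fall among genes named for the size of their change, with 0.272, 0.397, 4.14 and 2.94 CPM in A375/211, against 200.2, 215, 317 and 711 CPM in A375 (log2 -7.46 ± 0.40, SE, adjusted p = 0.00017). COL12A1, which decorates collagen fibrils, was higher by 2.93 ± 0.18 on the log2 scale (SE, adjusted p = 0.00027). Fibroblast markers summed to 33.4 to 162 CPM in A375/211 and 4.02 to 15.9 CPM in A375, with 2 of 4 tested markers (LUM and FAP) higher, and none at 0 throughout. LUM, which lies on chromosome 12, made up 23.4 to 132 CPM of this in A375/211. In total RNA the log2 differences were 1.30 for LUM and 0.24 for FAP, and neither passed (adjusted p = 0.13 and 0.94). Without 0 h, 3 fibroblast markers passed as higher and 1 as lower. The part of fibroblasts in the matrix results was not tested.

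Lysosomal genes were often higher, by modest amounts. Of 49 tested genes for lysosomal enzymes, membrane proteins and the V-ATPase proton pump, 22 rose and 3 fell (median log2 0.40). This was 51% called, beside 25.9% of all tested genes. In total RNA the median log2 of the list was -0.15, and 9 of the 25 that passed had the same sign there. CTSC, a protease that activates granule enzymes, had 308, 308, 445 and 741 CPM in A375/211, against 97.7, 97.7, 134 and 214 CPM in A375 (log2 1.71 ± 0.07, SE, adjusted p = 6.8e-05). GPNMB, a glycoprotein of melanosomes and lysosomes, rose by 1.41 ± 0.08 on the log2 scale (SE, adjusted p = 0.00019). With the scaling to the row that names no gene, 10 rose and 3 fell, and without 3 h 13 rose and 1 fell. The leukocyte markers CD68 and LYZ, both products of lysosomes or granules, moved with the list, by the values given beside the class II genes, and the part of such cells in the lysosomal result was not tested.

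Targets of p53 were lower as a list. Of 23 tested, 11 fell, none rose and 12 did not pass (47.8% called, beside 25.9% of all tested genes). The median log2 was -0.72, and 2 of the 23 had a positive difference. TP53I3, an oxidoreductase induced by p53, had 8.70, 5.55, 9.83 and 13.2 CPM in A375/211, against 35.9, 31.5, 39.0 and 74.7 CPM in A375, with no overlap (log2 -2.25 ± 0.15, SE, adjusted p = 0.00036). RRM2B, the p53-induced subunit of ribonucleotide reductase, had 66.6, 74.0, 107 and 49.7 CPM in A375/211, against 144, 186, 232 and 211 CPM in A375 (log2 -1.40 ± 0.18, SE, adjusted p = 0.0031). MDM2, which marks p53 for destruction, fell by 1.17 ± 0.17 on the log2 scale (SE, adjusted p = 0.005), while CDKN1A, the cell cycle inhibitor p21, did not pass at 0.12 ± 0.14. Both were named after their values were seen. In total RNA the same list had a median log2 of 0.34, and 4 of its 11 passing genes had the same sign there, so the list lay on opposite sides of 0 in the 2 assays. Leaving out 0, 1, 3 or 6 h left 5, 4, 5 and 13 of the list as lower and none as higher.

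Replication-dependent histone genes were lower too: 4 of 13 fell, none rose, and none of the 13 had a positive difference (median log2 -1.24). This was 30.8% called, beside 25.9% of all tested genes. The list median in total RNA was 0.06, and 2 of its 4 passing genes had the same sign there. H4C15, a histone H4 gene, had 4.35, 3.37, 2.93 and 1.47 CPM in A375/211, against 22.7, 14.8, 11.6 and 5.83 CPM in A375 (log2 -2.13 ± 0.18, SE, adjusted p = 0.00082). These genes exist in many near-identical copies, among which reads can be split. Without 3 h, 2 histone genes passed as lower, and without 6 h, 10 did. Of 34 proliferation genes, 2 rose and 5 fell (median log2 -0.29), a share close to the 12.3% of all genes that fell. Their median log2 in total RNA was 0.20, and 3 of the 7 that passed had the same sign there. PCNA, the sliding clamp of DNA polymerase, had 34.3, 34.1, 41.2 and 25.2 CPM in A375/211, against 72.7, 106, 152 and 105 CPM in A375 (log2 -1.67 ± 0.17, SE, adjusted p = 0.0015). PCNA and TPX2, a spindle assembly factor that fell by 0.82 ± 0.09 on the log2 scale (SE, adjusted p = 0.0018), both lie on chromosome 20, where many genes were lower, and without chromosomes 12, 13 and 20 the list had 2 higher and 3 lower of 30.

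Enzymes of cholesterol synthesis were lower in 8 of 21 cases and higher in 1 (median log2 -0.30, 42.9% called beside 25.9% of all tested genes). SQLE, squalene epoxidase, had 34.8, 46.8, 46.9 and 12.5 CPM in A375/211, against 88.9, 93.0, 92.9 and 29.3 CPM in A375 (log2 -1.13 ± 0.11, SE, adjusted p = 0.0014). IDI1, an isomerase earlier in the pathway, fell by 1.03 ± 0.11 on the log2 scale (SE, adjusted p = 0.0018). Both genes were lower in A375/211 at all 4 times. Leaving out 0, 1, 3 or 6 h left 5, 4, 4 and 5 of the list as lower.

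Zinc finger genes of the ZNF family leaned lower in labelled RNA, with 51 lower and 11 higher of 395 (median log2 -0.27). Their median log2 in total RNA was 0.12, and 33 of the 62 that passed had the same sign there. The share that fell was near the 12.3% of all tested genes, while the share that rose was well under 13.6%, and 333 of the 395 did not pass. Leaving out a time left 14 to 42 of them as lower and 4 to 12 as higher. A window of 20 neighbours on chromosome 19 from BNIP3P30 to ZNF254 had 11 lower and none higher (median log2 -0.95).

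Output genes of the ERK pathway, which BRAF drives in this line, split evenly into 5 higher and 5 lower of 21 (median log2 -0.13). This was 47.6% called, beside 25.9% of all tested genes. PHLDA1, an early ERK response gene, had 771, 844, 140.3 and 71.3 CPM in A375/211, against 267, 255, 34.9 and 16.3 CPM in A375 (log2 1.83 ± 0.12, SE, adjusted p = 0.00029), while SPRY2, a feedback inhibitor of receptor kinases that was named after its value was seen, had 49.8, 38.1, 3.45 and 6.13 CPM in A375/211, against 179, 131, 7.45 and 11.5 CPM in A375 (log2 -1.50 ± 0.19, SE, adjusted p = 0.0033). Both are lost quickly over the chase, and their ranges overlapped between the lines although every matched time pointed the same way.

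Among melanocyte lineage genes, 5 rose and 2 fell of 14 (median log2 0.28, 50% called beside 25.9% of all tested genes). When a time was left out, 2 or 3 rose. Without chromosomes 12, 13 and 20 there were 2 higher and 2 lower of 10 (median log2 -0.03). The list median in total RNA was -0.09, and 2 of its 6 passing genes had the same sign there. DCT, a pigment enzyme, had 25.8, 23.8, 35.3 and 112 CPM in A375/211, against 6.48, 5.28, 10.1 and 23.7 CPM in A375 (log2 2.05 ± 0.14, SE, adjusted p = 0.00033). Its total RNA difference was -0.29 on the log2 scale and did not pass (adjusted p = 0.91). SOX10, a transcription factor that specifies the lineage, had 33.4, 129.7, 16 and 13.5 CPM in A375/211, against 178, 188, 56.7 and 31.7 CPM in A375. The labelled log2 difference of SOX10 was -1.49 ± 0.31 (SE, adjusted p = 0.017), the A375/211 library at 1 h stood above the others of its line, and without the 3 h libraries the difference of -1.34 did not pass. MITF did not pass in labelled RNA, at -0.70 ± 0.27 (SE, adjusted p = 0.1), and was named after its value was seen. TFAP2B, a neural crest transcription factor, was among the largest falls, with 29.9, 28.9, 20.9 and 8.33 CPM in A375/211, against 392, 423, 259.8 and 105 CPM in A375 (log2 -3.72 ± 0.09, SE, adjusted p = 1.5e-05). In total RNA its log2 difference had the other sign, at 0.47.

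**Figure D3:**
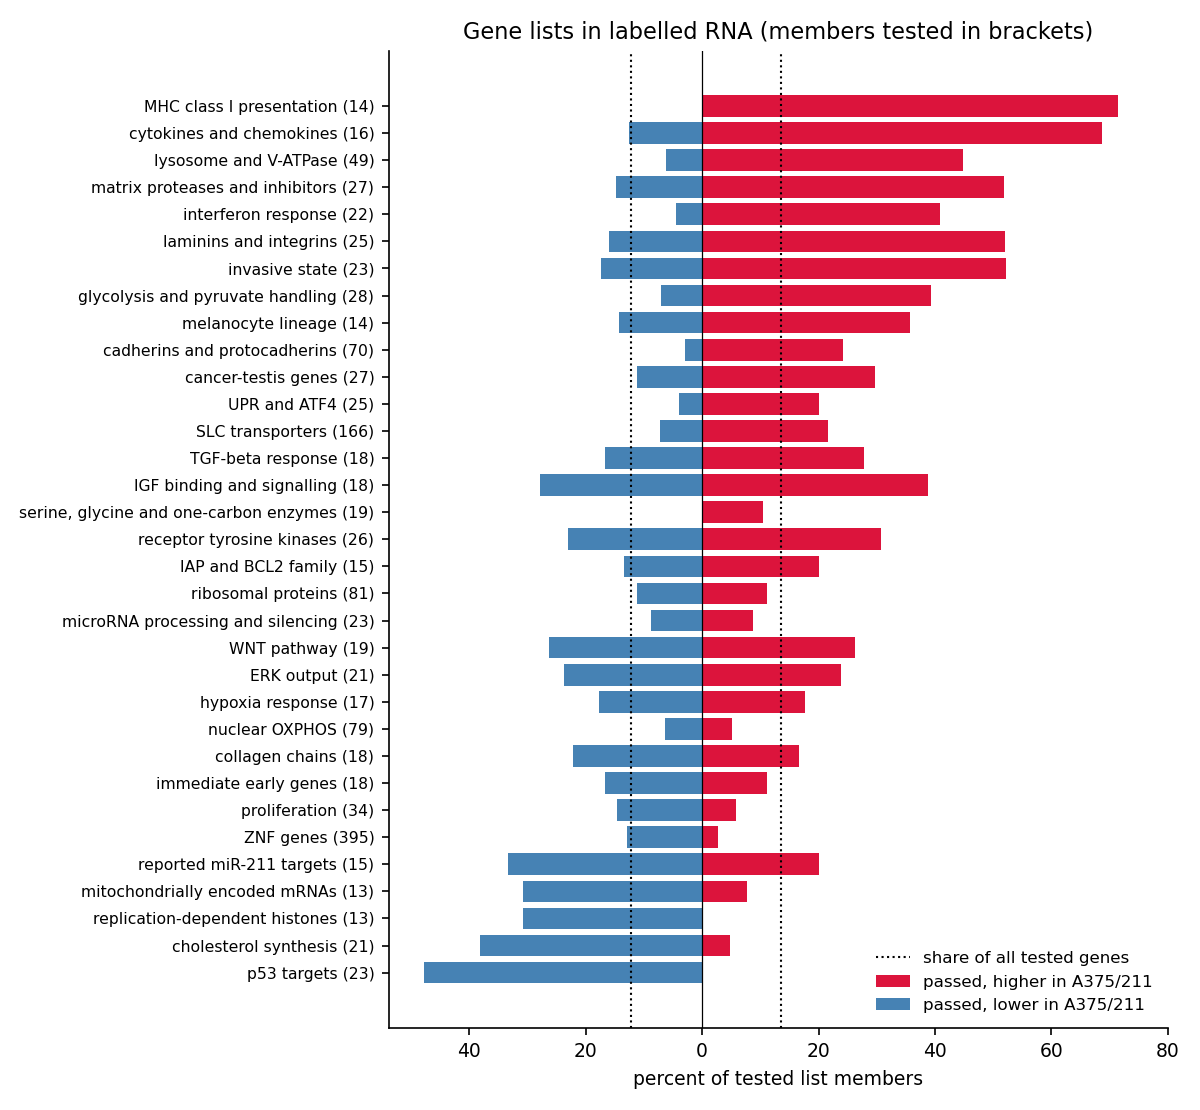
Share of each gene list's tested members that passed as higher (red, to the right) or lower (blue, to the left) in A375/211, with the number tested in brackets. Dotted lines mark the 13.6% and 12.3% of all tested genes that did so, and MHC class I presentation stands at the top of the order and p53 targets at the bottom.

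The 15 reported targets of miR-211 did not move as a block. Of these, 5 fell, 3 rose and 7 did not pass (53.3% called, beside 25.9% of all tested genes), and the median log2 was -0.18. Leaving out a time left 2 or 3 as lower and 3 as higher. IGFBP5, which binds insulin-like growth factors and has 1 seed match in its 3′ untranslated region, had 2.18, 3.77, 6.90 and 14.5 CPM in A375/211, against 38.0, 44, 86.5 and 162 CPM in A375, with no overlap (log2 -3.64 ± 0.15, SE, adjusted p = 6.8e-05). SOX11, a transcription factor of neural progenitors with 3 seed matches, had 13.3, 11.7, 8.62 and 2.70 CPM in A375/211, against 76.0, 87.9, 44.8 and 14.5 CPM in A375, with no overlap (log2 -2.57 ± 0.15, SE, adjusted p = 0.00022). PDK4, a kinase that switches off pyruvate dehydrogenase and has 1 seed match, had 17.9, 17.1, 3.45 and 1.47 CPM in A375/211, against 23.8, 28.5, 8.28 and 3.42 CPM in A375.

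PDK4 fell by 0.83 ± 0.20 on the log2 scale (SE, adjusted p = 0.03), and it did not pass when the libraries of 1, 3 or 6 h were left out (-0.83, -0.64 and -0.73). In total RNA, PDK4 fell by 2.12 on the log2 scale (adjusted p = 0.044). KCNMA1, a potassium channel, fell by 0.85 ± 0.18 (SE, adjusted p = 0.018) and SERINC3, a membrane protein that restricts retroviruses, by 0.32 ± 0.08 (SE, adjusted p = 0.036). KCNMA1 did not pass without 0, 3 or 6 h (-0.71, -0.86 and -0.82), nor did SERINC3 without any one of the times (-0.35 to -0.23).

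DUSP3, a phosphatase of ERK and JNK with 2 seed matches, had 29.6, 35.3, 11.9 and 8.58 CPM in A375/211, against 23, 27.3, 30.8 and 12.1 CPM in A375. It was higher in A375/211 at 0 and 1 h and lower at 3 and 6 h, and the matched difference of -0.26 ± 0.32 did not pass (SE, adjusted p = 0.59). The 3 h libraries decided its sign, since without them the value was 0.16. In total RNA, DUSP3 had 15 and 10.4 CPM in A375/211, against 67.8 and 71.8 CPM in A375 (log2 -2.46, adjusted p = 0.053).

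The 3 reported targets that rose carry seed matches as well. NUAK1, a kinase of the AMPK family with 3 matches, had 15.2, 18.2, 16.7 and 6.62 CPM in A375/211, against 3.83, 3.38, 2.62 and 1.61 CPM in A375, with no overlap (log2 2.31 ± 0.21, SE, adjusted p = 0.0009). TGFBR2, the type II receptor of TGF-beta, rose by 1.20 ± 0.16 and AP1S2, a subunit of a clathrin adaptor, by 1.81 ± 0.18 on the log2 scale (SE, adjusted p = 0.0034 and 0.0014). All 8 passing targets had the same sign in total RNA, beside 66.2% of all passing genes measured there. For the 3 that rose, the total RNA log2 differences were 1.39 for NUAK1, 0.64 for TGFBR2 and 0.02 for AP1S2. None of the 3 passed there (adjusted p = 0.26, 0.48 and 0.98).

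Over all genes, a seed match was not accompanied by a lower median. The median log2 difference was -0.07 for 8495 protein-coding genes with no AAAGGGA in their 3′ untranslated region, -0.04 for 1766 genes with 1 and 0.05 for 523 genes with 2 or more. With 2 or more matches 16.1% of genes fell and 20.1% rose, against 13.3% and 14% with none. The longer regions of the genes with more matches (median 4829 bases, against 1220 with none) and their higher level (median log2 CPM of 5.02 against 4.19) moved with these shares, and their part was not tested.

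**Figure D4:**
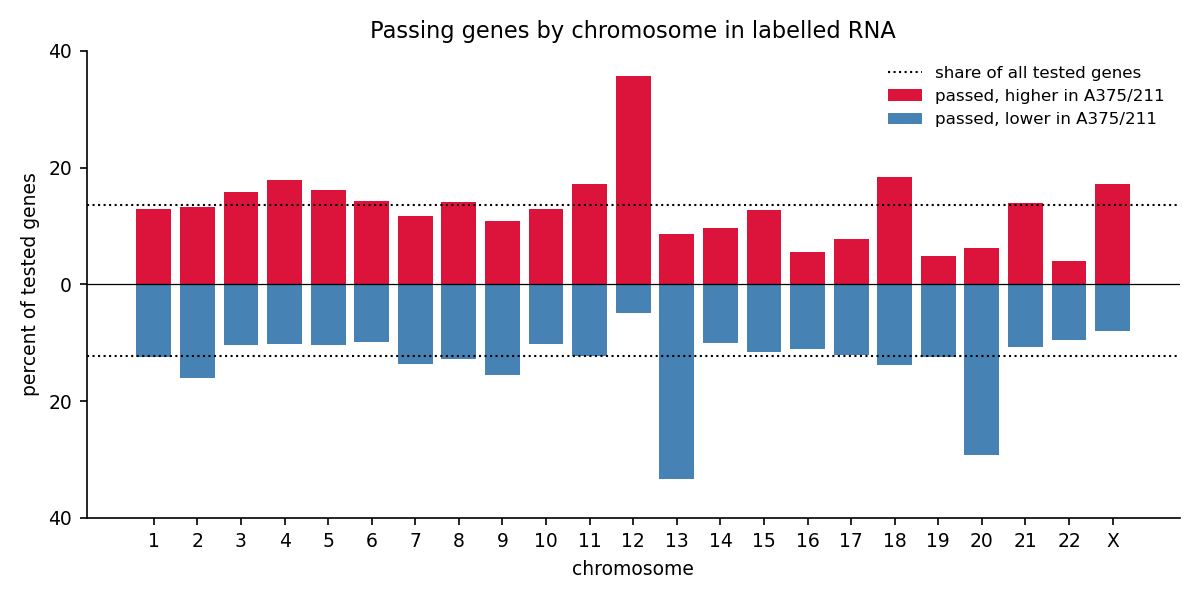
Share of tested genes on each chromosome that passed as higher (red, upward) or lower (blue, downward) in A375/211, with dotted lines at the 13.6% and 12.3% of all tested genes. Chromosome 12 stands out upward at 35.7% and chromosomes 13 and 20 downward at 33.3% and 29.3%.

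Genes also differed by chromosome. On chromosome 12, 279 of 782 tested genes (35.7%) were higher and 39 (4.99%) lower, with a median log2 of 0.46. On chromosome 13, 24 of 279 genes were higher and 93 (33.3%) lower (median log2 -0.37), and on chromosome 20, 20 of 324 were higher and 95 (29.3%) lower (median log2 -0.32). The chromosome 12 median was 0.45, 0.40, 0.44 and 0.41 at 0, 1, 3 and 6 h, so all times showed it. Leaving out a time left 185 to 250 higher on chromosome 12, 37 to 65 lower on chromosome 13 and 38 to 60 lower on chromosome 20. In total RNA the medians had the same signs and were smaller, at 0.17 on chromosome 12, -0.23 on chromosome 13 and -0.09 on chromosome 20. With the scaling to the row that names no gene (3 to 81 counts per library) the chromosome 12 median was 0.27, and the other 2 were -0.57 and -0.52.

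Some members of the lists that rose lie on these chromosomes. Of 11 glycolysis genes that rose among 28 tested, 4 lie on chromosome 12, and without chromosomes 12, 13 and 20 there were 7 higher and 2 lower of 22 (median log2 0.13). GAPDH, a glycolytic enzyme often used as a loading control, had 372, 506, 1088 and 3554 CPM in A375/211, against 264, 298, 754 and 2461 CPM in A375 (log2 0.58 ± 0.07, SE, adjusted p = 0.0027). LDHB, a subunit of lactate dehydrogenase, rose by 0.94 ± 0.09 on the log2 scale (SE, adjusted p = 0.0012). The median of this list, 0.16, was -0.05 with the scaling to the row that names no gene, where GAPDH did not pass, and 7 of the list rose without 1 h or without 3 h. Its median in total RNA was -0.13, and 9 of its 13 passing genes had the same sign there. Of 9 ribosomal protein genes that rose and 9 that fell among 81 (median log2 -0.02), 4 of those that rose lie on chromosome 12. Both counts are smaller shares of the list than the 13.6% higher and 12.3% lower of all tested genes. Without chromosomes 12, 13 and 20, 24.3% of all remaining genes passed, and the cytokine, MHC class I and cholesterol lists, which have no tested member there, were as before.

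Total RNA gave the same sign for most but not all of these differences. Of 3380 genes that passed in labelled RNA and were measured in RNA-seq, 2237 (66.2%) had the same sign there, against 54.8% of 9297 genes that did not pass. The share was higher for large rises: 96 of 107 passing genes (89.7%) at least 16-fold higher in labelled RNA were also higher in total RNA. Across 12677 genes the correlation of the 2 log2 differences was 0.41 (Pearson) and 0.25 (Spearman), as a description over genes, which are not independent. By its own test, RNA-seq called 73 of 19258 genes (0.379%), with 2 libraries per line (0 to 15 genes when 1 library was left out), and 25 genes passed in both assays, 23 of them with the same sign. COL11A1, FDCSP, IL24 and FAT3 are among these: COL11A1 had 0.648 and 1.88 CPM in A375/211 total RNA, against 306 and 310.1 CPM in A375 (log2 -7.94, adjusted p = 0.043).

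**Figure D5:**
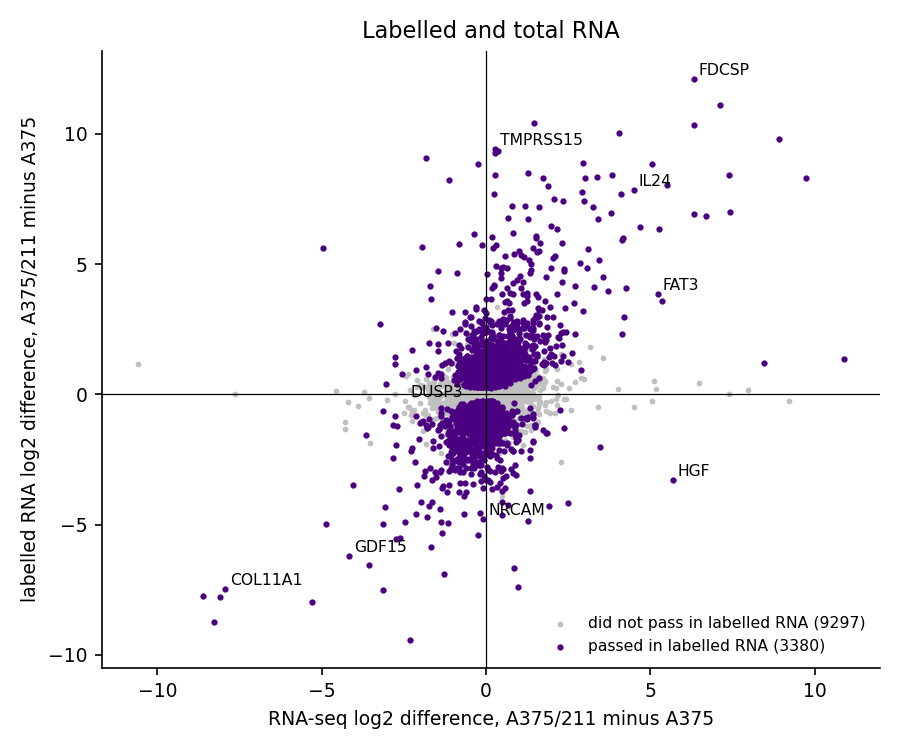
Log2 difference in labelled RNA (vertical) against that in total RNA (horizontal), A375/211 minus A375, 1 point per gene tested in both assays. Purple points are the 3380 genes that passed in labelled RNA and grey points the 9297 that did not. COL11A1 and FDCSP lie far out in both assays, TMPRSS15 and NRCAM along the vertical axis, and HGF in the corner of opposite signs.

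Some of the largest labelled differences did not pass in total RNA and were small there. TMPRSS15, the gut protease enteropeptidase, had 135, 184, 317 and 768 CPM of labelled RNA in A375/211, against 0.883, 0, 0.552 and 0.603 CPM in A375 (log2 9.41 ± 0.37, SE, adjusted p = 6.8e-05). In total RNA it had 98.3 and 63.8 CPM in A375/211, against 72.2 and 60.7 CPM in A375 (log2 0.29, adjusted p = 0.81). The A375 BRIC-seq libraries thus held almost none of a transcript that both A375 RNA-seq libraries held at the level of A375/211.

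NRCAM, described above, had 46.6 and 41.1 CPM in A375/211 total RNA, against 53.2 and 39.9 CPM in A375 (log2 -0.09, adjusted p = 0.95). HGF, the ligand of the MET receptor, reversed: its labelled level was 41.1, 18.0, 1.90 and 3.43 CPM in A375/211, against 243, 223, 49.7 and 18.5 CPM in A375 (log2 -3.27 ± 0.35, SE, adjusted p = 0.0017). In total RNA HGF had 2.92 and 3.62 CPM in A375/211, against 0 and 0.104 CPM in A375 (log2 5.68, adjusted p = 0.074). NTS (labelled -4.16, total 2.50), CCN3 (4.74 and -1.47), PRUNE2 (5.73 and -0.13) and SLC7A11 (4.66 and -0.89) completed the 5 widest gaps with opposite signs, and none of the 5 passed in total RNA. Whether the 2 assays used the same cultures is not given in the sources used here, and differences between cultures and between labelled and total RNA cannot be told apart.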

How the data were processed

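The authors deposited whole-number read counts per gene, not normalized, in 1 table for BRIC-seq and 1 for RNA-seq. Reads were aligned with HISAT2 2.1.0 and quantified with StringTie, per the submitters' processing notes. These name hg19 and the design text hg38, so coordinates are from GENCODE 44 (hg38), which gave 67.9% of the IDs a symbol. The settings for strand and multi-mapping reads were not given in the sources used here, so antisense, overlapping and near-identical genes are uncertain. A row that names no gene (0.000108 to 0.00122% of a library) was left out. It held 3, 10, 36 and 81 counts at 0, 1, 3 and 6 h in A375/211, and 3, 9, 31 and 80 in A375. A scaling to it thus carries a large counting error, most of all at 0 h.

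Counts were tested with edgeR 4.0.16 (R 4.3.3): TMM, filterByExpr by line (minimum count 10, total 15), quasi-likelihood F test, Benjamini-Hochberg adjustment over all tested genes, chase time as a factor and line as the coefficient. An adjusted p under 0.05 passed. SE is the log2 value over the square root of F. RNA-seq was fitted by line (2 residual degrees of freedom). Folds against 0 counts use a floor of 3 counts over a line's libraries and cover counting error only; setting such genes at that bound changed no list median. Motifs and seed matches are exact.

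Members and lists were chosen with earlier results of these data known. Genes named were the 14 largest rises and falls (average log2 CPM of at least 4, same direction at all times), up to 3 passing members per list by smallest p, reported targets, 5 opposite-sign genes and the 5 highest counts against 0. Alternatives were DESeq2 1.42.0, other scalings and filters, other time terms and leaving out each time.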

Additional observations from a re-analysis of the deposited data

Results flagged for a closer look

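For 8 of 140 named genes with a test, 1 chase time stood far from the other 3 in its log2 ratio, A375/211 over A375 (Dixon's test at 95% for 4 values). Chance alone flags about 1 in 20. MMP2 had 5.30 at 6 h and 4.36 to 4.39 at the other times, IFIH1 2.61 at 6 h and 1.79 to 1.90, GAPDH 0.77 at 1 h and 0.50 to 0.53, ITGA1 -2.72 at 3 h and -2.81 to -2.80, and ABCA12 -6.48 at 0 h, where A375/211 had no count, and -3.58 to -3.32. DGKI, a diacylglycerol kinase among the largest falls, had -2.10 at 6 h and -4.90 to -4.47 before. IER3, an early response gene, had 0.15 at 6 h and -1.24 to -1.19 before. DUSP6, a phosphatase of ERK and a reported miR-211 target that did not pass, had 1.45 at 3 h and -0.64 to -0.40 at the other times.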

How the results depend on the processing

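The 3546 calls became 2155 (1214 higher, 941 lower) with hours as a number and 334 (221, 113) with no time term. Leaving out a time gave 1736 to 2821 calls, 1096 to 1713 higher and 640 to 1119 lower, with fewer libraries in each fit. Without the low-count filter 1046 genes were lower, and with scaling to the row that names no gene, added after seeing the data, 918 were higher and 1755 lower (median -0.24). DESeq2 gave 2164 higher and 1604 lower. RNA-seq called 748 genes with DESeq2, 237 without the filter, 192 with a replicate block pairing the letters a and b (1 residual degree of freedom; the labels do not say that the letters pair the samples), and 0 to 15 without 1 library. No paired fit of labelled RNA beyond the matched times was possible. DESeq2 called 14 changes over the chase, another alternative added later. Of 140 named genes, 55 kept direction and call under every setting and 7 reversed, none of them a passing gene. Row scaling gave EDEM1 -0.159, IGF2R -0.0097, RAB22A -0.0022 and POU3F2 -0.051, and total counts gave EDEM1 -0.065. Leaving out a time gave -0.0991 to 0.1896 for EDEM1, -0.0316 to 0.3397 for POU3F2, -0.473 to 0.1295 for DUSP6, -0.5292 to 0.1082 for NFAT5 and -0.4623 to 0.1598 for DUSP3. The cause was not tested.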

Other observations

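There were 4 gene rows, all outside the tested set, with at least 100 counts in 1 BRIC-seq library and 0 in the other 7. RBM12, an RNA-binding protein gene, had 508 counts in A375/211 at 1 h, and the near-identical cancer-testis genes MAGEA2 and MAGEA2B had 342 and 340 in A375 at 3 h. In total RNA all 3 were measured in both lines.

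By class of gene, processed pseudogenes were seldom lower in A375/211, with 23 lower (2.51%) and 112 higher (12.2%) of 916, beside 12.3% lower and 13.6% higher over all tested genes, while 1246 lncRNAs were close to even, at 8.67% higher and 9.47% lower. UCA1, an oncogenic lncRNA, had 29.1, 36.9, 52.2 and 96.8 CPM in A375/211, against 0.294, 0, 0.276 and 0 CPM in A375. LINC02261 had counts of 0 at every time in A375/211, against 120, 112, 69 and 28 in A375, at least 100-fold lower. PTPN22, a phosphatase of lymphocytes, and CD163L1, a scavenger receptor, had no counts in A375 and were at least 380-fold and 234-fold higher in A375/211.

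Outside chromosomes 12, 13 and 20, the lowest window of 20 neighbours was on chromosome 11 from RAB39A to NKAPD1, with 2 genes higher and 13 lower (median log2 -1.02, and -0.36 in total RNA).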
